A study of Mus musculus with 6 samples.

Results

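The 42 genes described here encode the contractile machinery of skeletal muscle: 6 sarcomeric myosin heavy chains, 4 myosin light chains, 11 proteins of the thin filament, 8 proteins of titin, the myosin-binding proteins and the Z-disc, 6 proteins of calcium handling, 5 enzymes and oxygen carriers of muscle energy metabolism and 2 myogenic transcription factors. They were taken as a list by gene symbol, and 42 of 42 were among the 20239 named genes of the arrays, with 1 probe set each. Gene expression had been measured in whole sciatic nerves of mice aged 25 days on Affymetrix arrays of 1 colour that cover whole transcripts, each mouse on its own array. The mutant group was DhhCre::Sip1 flox/flox, which is 2 floxed alleles of Sip1 (now named Zeb2, a zinc finger transcription factor) with a Cre recombinase driven by desert hedgehog sequences, which are active in the Schwann cell lineage, and it had 3 mice. The control group was Sip1 flox/flox, the same floxed alleles without Cre, and it had 3 mice. The labels number the biological replicates of each group from 1 to 3 without saying what a number stands for. Values are on the log2 scale, so a difference of 1 is 2-fold.

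In a sarcomere, myosin heads of the thick filament pull on actin of the thin filament when calcium, released from the sarcoplasmic reticulum, binds troponin and moves tropomyosin off the actin. Most of these proteins exist as fast and slow isoforms encoded by separate genes, and adult limb muscle of the mouse is a mosaic of slow fibres, which carry the myosin of Myh7, and of fast fibres of types IIA, IIX and IIB, which carry those of Myh2, Myh1 and Myh4. Nerve itself is not built of striated muscle: the sciatic nerve runs between the muscles of the thigh, and its own cells are Schwann cells, fibroblasts, perineurial cells, vessel cells and axons. In RNA of whole tissue, more muscle cells and more muscle RNA per cell cannot be told apart.

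Of the markers of nerve, Pmp22, a protein of compact myelin, lay between 13.67 and 14.52 on all 6 arrays and fell by 0.60 in the mutants (limma adjusted p = 0.0137). Mag, the myelin-associated glycoprotein, stood at 7.25, 6.95 and 7.26 in the mutants, against 11.84, 11.90 and 12.39 in the controls. Zeb2 fell to 10.88 ± 0.19 in the mutants, against 11.75 ± 0.23 in the controls (mean ± SD, n = 3 each, limma adjusted p = 0.0137). As a yardstick of low signal, the median of 1098 olfactory receptor genes lay between 5.42 and 6.06, and their 95th percentile between 7.19 and 7.87, the highest of both on control 1. Mag in the mutants lay close to that percentile. The files give no detection calls, and 5 muscle genes (Myh3, Myh8, Myl2, Tnnt1 and Myog) stayed under 8 on every array. Of the 42 genes 17, 6 and 7 lay under that 95th percentile on mutants 1, 2 and 3, against 26, 5 and 3 on controls 1, 2 and 3. Many differences from a nerve numbered 1 are therefore set against a value not separated from low signal, and their sizes are not exact. How far background narrows the differences of such low genes was not tested, and the levels of different genes are not compared here.

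The promoters of 4 adult myosin genes are shown for illustration. Over the 6 nerves the transcripts of Myh4 and Myh1 followed a similar pattern, and those of Myh2 and Myh7 did not follow it. Any link between the windows and these patterns was not tested. Each promoter is the RefSeq window of 250 bases before to 50 after the annotated start (build GRCm38.p6). Such a window was found for 33 of the 42 genes, in 40 windows. Those of Myh4 (chr11:67237562-67237861, plus strand), Myh1 (chr11:67199852-67200151, plus strand) and Myh2 (chr11:67170777-67171076, plus strand) lie in 1 gene cluster, and that of Myh7 (chr14:54994577-54994876, minus strand, the first of 2 windows) on another chromosome. Capitals mark matches, on either strand, to 4 motifs of muscle promoters: the E-box CAGCTG, the TATA box as TATAAA, the MEF2 site and the CArG box of serum response factor.
Myh4: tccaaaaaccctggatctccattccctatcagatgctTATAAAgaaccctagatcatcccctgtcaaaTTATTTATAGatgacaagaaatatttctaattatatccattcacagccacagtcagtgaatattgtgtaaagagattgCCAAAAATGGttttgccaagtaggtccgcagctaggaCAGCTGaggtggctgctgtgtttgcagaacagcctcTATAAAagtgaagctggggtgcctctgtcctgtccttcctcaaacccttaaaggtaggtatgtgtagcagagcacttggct
Myh1: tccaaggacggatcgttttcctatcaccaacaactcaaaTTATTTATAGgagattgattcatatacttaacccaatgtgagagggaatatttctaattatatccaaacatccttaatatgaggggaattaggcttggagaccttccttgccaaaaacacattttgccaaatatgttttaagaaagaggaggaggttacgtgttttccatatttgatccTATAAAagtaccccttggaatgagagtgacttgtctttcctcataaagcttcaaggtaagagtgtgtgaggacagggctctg
Myh2: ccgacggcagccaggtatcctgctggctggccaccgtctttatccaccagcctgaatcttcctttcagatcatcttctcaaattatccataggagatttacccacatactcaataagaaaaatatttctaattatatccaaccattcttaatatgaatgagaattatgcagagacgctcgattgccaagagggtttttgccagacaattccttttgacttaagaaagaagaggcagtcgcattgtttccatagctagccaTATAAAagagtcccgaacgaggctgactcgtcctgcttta
Myh7: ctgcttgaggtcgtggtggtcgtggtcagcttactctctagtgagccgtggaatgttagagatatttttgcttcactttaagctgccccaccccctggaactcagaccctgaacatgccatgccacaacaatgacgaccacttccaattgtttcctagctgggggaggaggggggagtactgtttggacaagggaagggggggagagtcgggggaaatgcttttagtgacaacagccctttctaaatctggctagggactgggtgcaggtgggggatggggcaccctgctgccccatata

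The window of Myh4 held all 4 motifs, with CAGCTG at −67, a CArG box at −104, an MEF2 site at −182 and TATAAA at −31 relative to the annotated start. The window of Myh1 held an MEF2 site at −211 and TATAAA at −32, and that of Myh7 none of the 4. That of Myh2 held TATAAA only, 10 bases after the annotated start and not before it as in Myh4 and Myh1. In Myh4 and Myh1 the MEF2 match overlaps a reverse match to TATAAA. Over the 40 windows of the muscle genes, which may overlap where a gene has several, 50% held CAGCTG, against 16.3% of all 32851 windows in the table. The share was 22.5% against 13.6% for TATAAA, 15.0% against 3.19% for the MEF2 site and 7.50% against 1.63% for the CArG box. A match of letters is a description of the window and not a binding site.

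Many of these genes varied widely between mice of 1 genotype, and the same replicate numbers were high or low in both groups. The mean over the 42 genes was 7.68, 11.06 and 9.01 in mutants 1, 2 and 3, and 7.67, 11.07 and 9.62 in controls 1, 2 and 3. Number 2 was thus high, number 3 intermediate and number 1 low in either genotype. Of the 42 genes 27 kept the order number 2 above number 3 above number 1 in both groups, as did 548 of all 20239 genes, or 2.71%. The range over the 6 arrays was at least 4 for 26 of the 42 genes, and 97 genes of the whole array had such a range. The median range was 4.91 for the 42 genes and 0.43 for all genes.

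**Figure D1:**
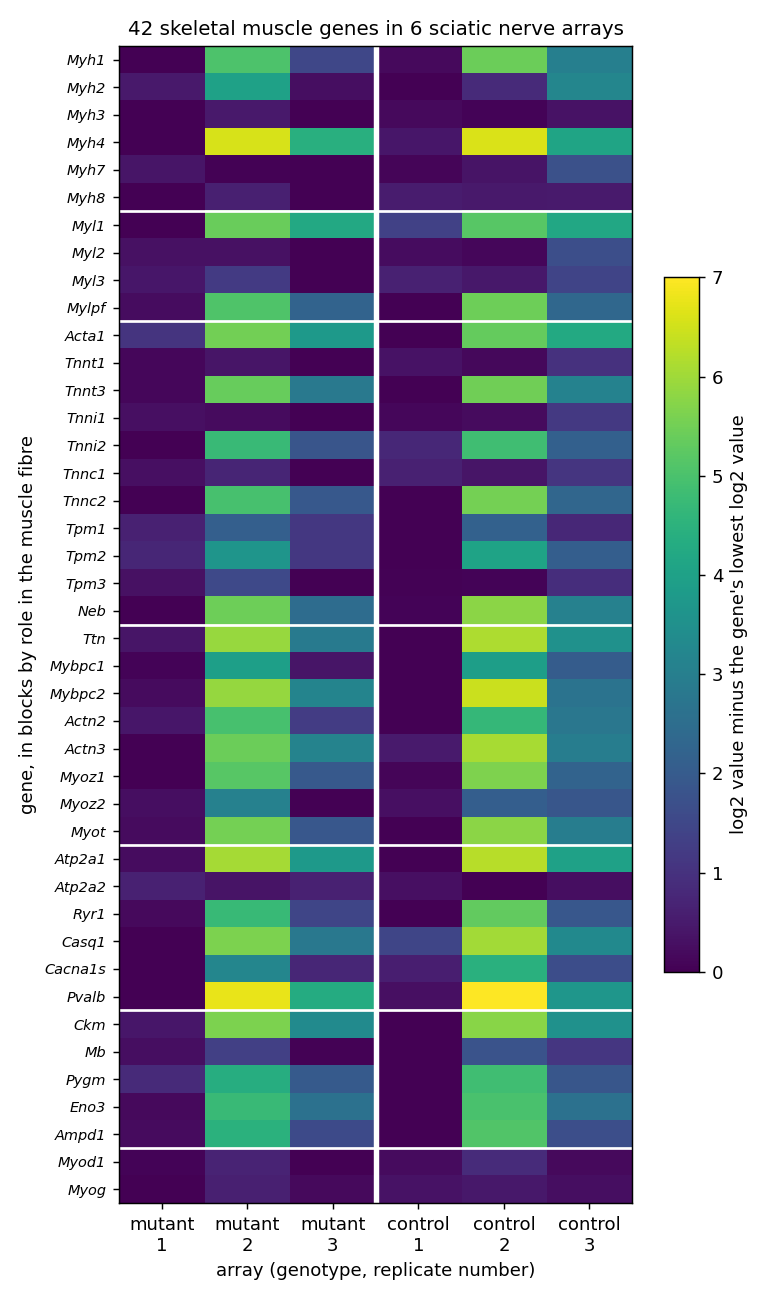
Heat map of the 42 muscle genes (rows, in blocks by role) on the 6 arrays (columns, mutants left of controls), coloured by the log2 value minus the lowest log2 value of that gene. Arrays numbered 2 are bright in both genotypes for most genes, with a mean of 11.06 in mutant 2 and 11.07 in control 2, and slow-fibre genes such as Myh7 and Myl2 are brightest on control 3.

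Among the myosin heavy chains, Myh4, the IIB myosin of the fastest fibres, had the widest range. Myh4 stood at 6.43, 13.02 and 10.85 in mutants 1, 2 and 3, and at 6.87, 13.05 and 10.51 in controls 1, 2 and 3. It was high in both nerves numbered 2, and its values in mutant 1 and control 1 lay under the 95th percentile of olfactory receptor genes. Same-numbered nerves of the 2 genotypes differed by 0.44 or less. Myh1, the IIX myosin, stood at 6.30, 11.36 and 7.79 in the mutants, against 6.47, 11.73 and 9.31 in the controls, so that the nerves numbered 3 were 1.53 apart, with the mutant lower.

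Myh2, the IIA myosin of fast oxidative fibres, did not follow the replicate number. It stood at 7.79, 11.32 and 7.59 in mutants 1, 2 and 3, and at 7.31, 8.15 and 10.52 in controls 1, 2 and 3. Its high samples were mutant 2 and control 3: mutant 2 was 9.03-fold above control 2, and mutant 3 was 2.93 below control 3 on the log2 scale. These were the widest gaps between same-numbered nerves of any of the 42 genes in both pairs.

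Myh7, the slow myosin, was high on 1 array. It stood at 7.74, 7.38 and 7.35 in the mutants, against 7.45, 7.72 and 9.08 in controls 1, 2 and 3. The developmental myosins stayed low throughout: Myh3, the embryonic chain, ran from 5.44 to 5.91 in the mutants and from 5.50 to 5.78 in the controls, the narrowest range of the heavy chains at 0.47. Myh8, the perinatal chain, stood at 6.83, 7.45 and 6.85 in the mutants, against 7.35, 7.32 and 7.34 in the controls. The heavy chain genes are similar in sequence and the probe sequences are not used here, so cross-hybridisation between them was not tested.

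**Figure D2:**
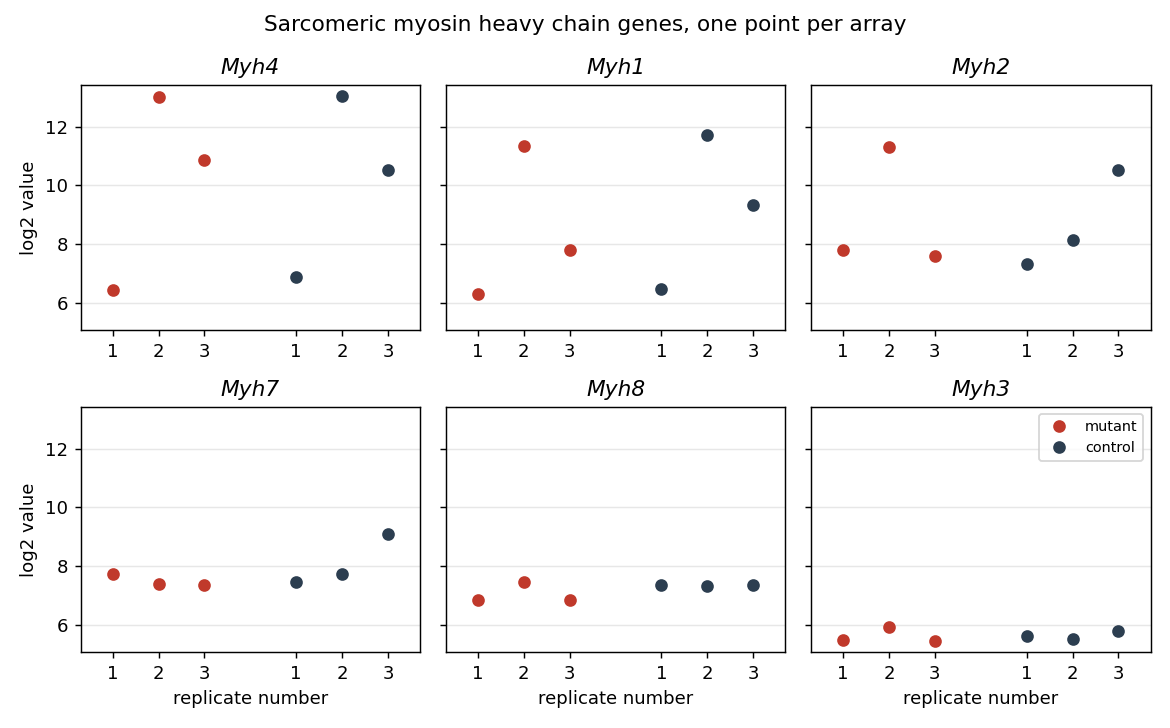
Log2 values of the 6 sarcomeric myosin heavy chain genes, 1 point per array, by replicate number, with mutants left of controls. Myh4 and Myh1 are high on arrays numbered 2 in both genotypes, Myh2 is high on mutant 2 (11.32) and control 3 (10.52), and Myh7 is highest on control 3 (9.08).

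The light chains split in the same way by fibre type. Mylpf, the fast regulatory light chain, stood at 6.96, 11.79 and 8.95 in the mutants, against 6.73, 12.18 and 9.07 in the controls. Myl1, the fast essential light chain, stood at 8.11, 13.51 and 12.33 in the mutants, against 9.48, 13.29 and 12.31 in the controls. Both fast chains were highest in the nerves numbered 2 and lowest in those numbered 1. Myl2, the regulatory chain of slow and ventricular muscle, stood at 6.17, 6.16 and 5.85 in the mutants, against 6.08, 5.97 and 7.54 in the controls. Myl3, the essential chain of slow and ventricular muscle, stood at 7.74, 8.51 and 7.33 in the mutants, against 7.96, 7.78 and 8.75 in the controls. Control 3 had the highest value of both slow chains.

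In the thin filament, skeletal actin, nebulin and the fast troponins followed the replicate number and the slow troponins did not. Acta1, skeletal alpha-actin, stood at 9.56, 14.03 and 12.30 in the mutants, against 8.51, 13.86 and 12.76 in the controls. Neb, the ruler protein of the thin filament, had the widest range of this set, at 7.28, 12.74 and 9.75 in the mutants, against 7.35, 13.06 and 10.36 in the controls. Both were far higher in the nerves numbered 2 than in those numbered 1.

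Troponin T binds tropomyosin, troponin I inhibits the actin-myosin contact and troponin C binds calcium, and each has a fast and a slow gene. Fast Tnnt3 stood at 8.0, 13.27 and 10.71 in the mutants, against 7.89, 13.36 and 10.99 in the controls, and slow Tnnt1 at 7.07, 7.35 and 6.94 in the mutants, against 7.28, 7.09 and 7.93 in the controls. Fast Tnni2 stood at 8.01, 12.75 and 9.87 in the mutants, against 8.80, 12.86 and 10.17 in the controls, and slow Tnni1 at 7.88, 7.80 and 7.59 in the mutants, against 7.73, 7.79 and 8.76 in the controls. Fast Tnnc2 stood at 7.28, 12.25 and 9.21 in the mutants, against 7.29, 12.82 and 9.59 in the controls, and Tnnc1, of slow and cardiac muscle, at 7.85, 8.28 and 7.57 in the mutants, against 8.21, 7.97 and 8.64 in the controls. All 3 slow troponins had their highest value on control 3, and all 3 fast troponins on control 2.

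The tropomyosins, which cells outside muscle express too, had narrower ranges than the fast troponins. Tpm1 stood at 11.73, 13.19 and 12.22 in the mutants, against 11.08, 13.24 and 11.87 in the controls. Tpm2 stood at 9.80, 12.69 and 10.19 in the mutants, against 9.05, 13.11 and 11.13 in the controls. Tpm3, whose muscle isoform belongs to slow fibres, stood at 8.93, 10.17 and 8.62 in the mutants, against 8.65, 8.69 and 9.52 in the controls. Like Myh2, Tpm3 was highest on mutant 2 and then on control 3.

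Ttn, the giant spring of the sarcomere, stood at 7.44, 12.98 and 9.92 in the mutants, against 7.05, 13.20 and 10.59 in the controls. Mybpc2, the fast myosin-binding protein C, had the widest range of the proteins of the thick filament and Z-disc, at 6.38, 12.07 and 9.32 in the mutants, against 6.17, 12.62 and 8.84 in the controls. Mybpc1, the slow form, stood at 6.35, 10.23 and 6.68 in the mutants, against 6.28, 10.20 and 8.32 in the controls. Mybpc1 was high in both nerves numbered 2, unlike the slow troponins and light chains, and its gap between the nerves numbered 3 was 1.64, with the mutant lower.

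Of the Z-disc proteins, Actn3, the alpha-actinin of fast fibres, stood at 7.27, 12.70 and 10.40 in the mutants, against 7.79, 13.36 and 10.24 in the controls. Actn2, the alpha-actinin of all fibres, stood at 7.93, 12.48 and 8.76 in the mutants, against 7.52, 12.19 and 10.29 in the controls. The nerves numbered 3 differed in Actn2, with the mutant 1.53 lower, and hardly in Actn3, with the mutant 0.16 higher. Myoz1, a calcineurin-binding Z-disc protein of fast fibres, stood at 6.83, 12.00 and 8.78 in the mutants, against 6.92, 12.46 and 9.07 in the controls. Myoz2, its slow and cardiac relative, stood at 6.16, 8.98 and 5.91 in the mutants, against 6.20, 8.01 and 7.79 in the controls, the narrowest range of these proteins. Myot, which crosslinks actin at the Z-disc, ranged from 6.87 to 12.21 in the mutants and from 6.66 to 12.44 in the controls.

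Among the genes of calcium handling, Pvalb, the calcium buffer of fast fibres, had the widest range of all 42 genes. It stood at 6.54, 13.31 and 10.84 in the mutants, against 6.81, 13.52 and 10.23 in the controls, and its values in both nerves numbered 1 lay under the same yardstick. Atp2a1, the calcium pump of fast fibres, stood at 7.90, 13.72 and 11.41 in the mutants, against 7.67, 13.91 and 11.67 in the controls. Atp2a2, the pump of slow and cardiac muscle and of most other cells, stood at 11.92, 11.67 and 11.93 in the mutants, against 11.58, 11.29 and 11.54 in the controls. Its range of 0.64 was the narrowest of this set, and it was the 1 gene of the 42 with no overlap between mutant and control values, with the mutants higher (28.1% of all genes had groups that did not overlap).

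The other 3 genes of calcium handling followed the replicate number. Ryr1, the calcium release channel, ranged from 7.18 to 11.71 in the mutants and from 7.0 to 12.31 in the controls. Casq1, the calcium-binding protein of the fast sarcoplasmic reticulum, stood at 7.02, 12.64 and 9.84 in the mutants, against 8.50, 13.06 and 10.34 in the controls. Cacna1s, the voltage sensor of the muscle membrane, stood at 7.32, 10.52 and 8.07 in the mutants, against 7.90, 11.76 and 8.97 in the controls. Casq1 and Cacna1s were lower in the mutant of every number, Cacna1s by 0.58, 1.25 and 0.90 for numbers 1, 2 and 3. So were Myh1, Tnni2, Tnnc2, Neb, Myoz1 and Myod1, with small differences in number 1 for Tnnc2 (−0.006), Neb (−0.07) and Myoz1 (−0.09). The share of all genes that were lower in the mutant of every number was not counted. In the nerves numbered 1, Cacna1s lay near the 95th percentile of olfactory receptor genes, which was 7.27 on mutant 1 and 7.87 on control 1. The part of background in that difference was not tested.

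In energy metabolism, Ckm, the muscle creatine kinase, had the widest range, at 8.68, 13.87 and 11.60 in the mutants, against 8.24, 13.99 and 11.77 in the controls. Mb, the oxygen store of oxidative fibres, had the narrowest, at 8.35, 9.42 and 8.13 in the mutants, against 8.10, 9.88 and 9.19 in the controls. The muscle glycogen phosphorylase Pygm, the muscle enolase Eno3 and the muscle AMP deaminase Ampd1 were highest in number 2 and lowest in number 1 of both genotypes, from 7.15 to 13.20 in the mutants and from 6.95 to 13.55 in the controls. Myod1 and Myog, transcription factors that start the muscle programme, had narrow ranges at low values. Myod1 stood at 7.44, 8.06 and 7.37 in the mutants, against 7.57, 8.23 and 7.54 in the controls, and Myog at 6.63, 7.26 and 6.80 in the mutants, against 6.98, 7.09 and 6.88 in the controls. Both were highest in the nerves numbered 2, and neither passed 8.23 on any array. Myf6, a myogenic factor of mature fibres outside the 42 genes, stood at 6.12, 9.23 and 6.66 in the mutants, against 6.15, 9.64 and 6.76 in the controls, and was high in both nerves numbered 2.

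The 13 fast-fibre genes (Myh1, Myh2, Myh4, Myl1, Mylpf, Tnnt3, Tnni2, Tnnc2, Mybpc2, Actn3, Myoz1, Atp2a1 and Pvalb) and the 10 slow-fibre genes (Myh7, Myl2, Myl3, Tnnt1, Tnni1, Tnnc1, Mybpc1, Myoz2, Atp2a2 and Tpm3) differed in how far they moved between nerves. The order number 2 above 3 above 1 held in both groups for 12 of the 13 fast genes, all but Myh2, and for 1 of the 10 slow genes, Mybpc1. The range over the arrays had a median of 5.54 for the fast genes, from 4.01 to 6.98, and of 1.49 for the slow genes, from 0.64 to 3.95. Mutant 2 stood above mutant 1 by a median of 5.27 for the fast genes and of 0.36 for the slow genes. Control 2 stood above control 1 by a median of 5.54 for the fast genes, while the slow genes had a median difference of −0.03.

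The nerves numbered 3 differed by genotype in their slow genes. Mutant 3 stood above mutant 1 by a median of 2.71 for the fast genes, and 12 of 13 were higher by at least 1, while the slow genes had a median of −0.29 and 0 of 10 were higher by at least 1. Control 3 stood above control 1 by a median of 2.84 for the fast genes, all 13 of them by at least 1, and by 0.95 for the slow genes, 5 of 10 of them by at least 1. Of the 10 slow genes 6 had their highest value of all arrays on control 3, 3 on mutant 2 (Mybpc1, Myoz2 and Tpm3) and 1, Atp2a2, on mutant 3. Of the 13 fast genes 11 had their highest value on control 2 and 2, Myh2 and Myl1, on mutant 2. These comparisons set single nerves against each other and have no replicate check.

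Set side by side as 10 pairs of counterparts, the fast gene always gained more than the slow one between number 1 and number 2, by a median of 4.72 in the mutants, from 0.88 to 6.95, and of 4.78 in the controls, from 0.90 to 6.53. The smallest of these gaps belonged to Actn3 and Actn2, the pair whose second gene is active in all fibres, and the largest to Myh4 and Myh7 in the mutants and Atp2a1 and Atp2a2 in the controls. In the controls Atp2a1 gained 6.25 and Atp2a2 changed by −0.28. Most other cells express Atp2a2 too, so its level is not a measure of slow fibres alone. Between number 1 and number 3 the fast gene gained more by a median of 2.46 in the mutants, in 10 of 10 pairs, and of 1.37 in the controls, in 9 of 10 pairs. Between mutant 3 and control 3, the fast counterpart stood higher relative to the slow one in the mutant in 9 of 10 pairs (median 1.51). Between mutant 2 and control 2 that was so in 1 of 10 pairs (median −0.57). Slow genes such as Myl2 lay near the values of olfactory receptor genes on most arrays, and the part of background in these gaps was not tested.

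**Figure D3:**
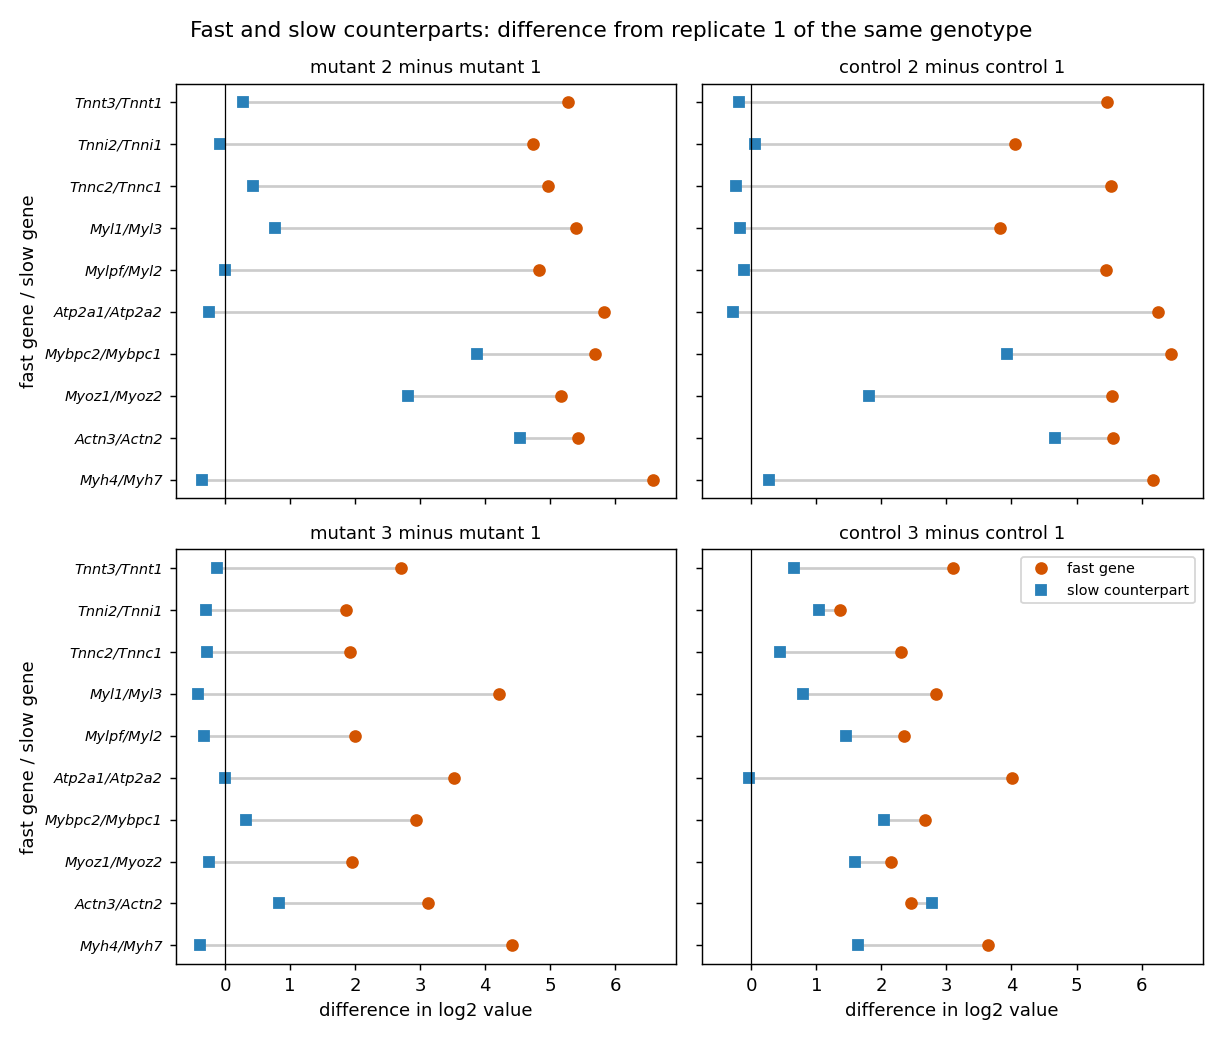
Difference in log2 value from replicate 1 of the same genotype for 10 pairs of fast genes (circles) and slow counterparts (squares, with Actn2 of all fibres as the counterpart of Actn3), for replicate 2 (top) and replicate 3 (bottom), mutants left of controls. Slow counterparts lie near 0 for mutant 3 (median −0.27) and to the right of 0 for control 3 (median 1.25).

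Between the genotypes, none of the 42 genes passed the test, where 9.62% of all genes did, 5.74% higher and 3.89% lower in the mutants (limma without a block, Benjamini-Hochberg adjusted p under 0.05 over 20239 genes). At an unadjusted p under 0.05 the test counted 1 of the 42, Atp2a2, against 22.4% of all genes. The median difference, mutant minus control, was −0.28 over the 42 genes and −0.02 over all genes. Of the 42 genes 9 were above 0 and 33 below, where 45.9% of all genes were above 0. As 24 of the 42 followed their mean over the arrays with a Pearson correlation of at least 0.95, their signs are not separate results. The median difference of the 42 genes was 0.66 without mutant 1, −1.33 without mutant 2, −1.33 without control 1 and 0.77 without control 2. The 42 genes ran from Cacna1s at −0.91 to Atp2a2 at 0.37. By fibre type, the median difference was −0.09 for the fast genes, 3 above and 10 below 0, and −0.32 for the slow genes, 2 above and 8 below 0. The slow median was below 0 between the nerves numbered 3 only, at 0.08, 0.29 and −1.29 for numbers 1, 2 and 3. Control 3 held the highest value of 6 of the 10 slow genes.

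The spread between replicates sets what this comparison can show. The median standard error was 1.44 for the 42 genes and 0.11 for all genes, and the 95% confidence intervals of the 42 genes had a median width of 6.82. For Myh4 the means were 10.10 ± 3.36 in the mutants and 10.14 ± 3.11 in the controls (SD, n = 3 each), a difference of −0.04 with an interval of −4.82 to 4.73. With such an interval this test could not tell a difference of genotype in Myh4 within those limits from no difference. For 8 of the 42 genes the interval lay within 1 of no difference.

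With the replicate number as a block the intervals narrowed. Their median width was 0.94, and 30 of the 42 lay within 1 of no difference. For Myh4 the interval was −0.43 to 0.34, and for Ckm, at 11.38 ± 2.60 in the mutants, against 11.33 ± 2.90 in the controls (SD, n = 3 each), it was −0.30 to 0.40. With the block Cacna1s passed as lower in the mutants, at 8.63 ± 1.67 in the mutants, against 9.54 ± 2.00 in the controls (difference −0.91, limma adjusted p = 0.0131 with the block and 0.705 without), where 10.1% of all genes passed in either direction and 4.16% as lower. It was 1 of 42, and 7 of the 42 had an unadjusted p under 0.05 with the block, where 23% of all genes did. The labels give the numbers no meaning, and the block was used because same-numbered arrays of these data correlated over all genes, at 0.36, 0.57 and 0.29. Mutant 1 and control 3 correlated at 0.30 as well. Over the 42 genes the same-numbered correlations were 0.94, 0.89 and −0.002. Over the 17738 genes with a range under 1 they were −0.16, 0.05 and 0.31. The values with the block thus rest on a pairing that such genes do not show for every number. The narrower intervals and the result for Cacna1s hold only if that pairing is real, which was not tested. Casq1 had a difference of −0.80 and an adjusted p of 0.0746 with the block. The widest interval with the block was that of Myh2, −2.22 to 2.70, the gene whose high samples had different numbers in the 2 genotypes.

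**Figure D4:**
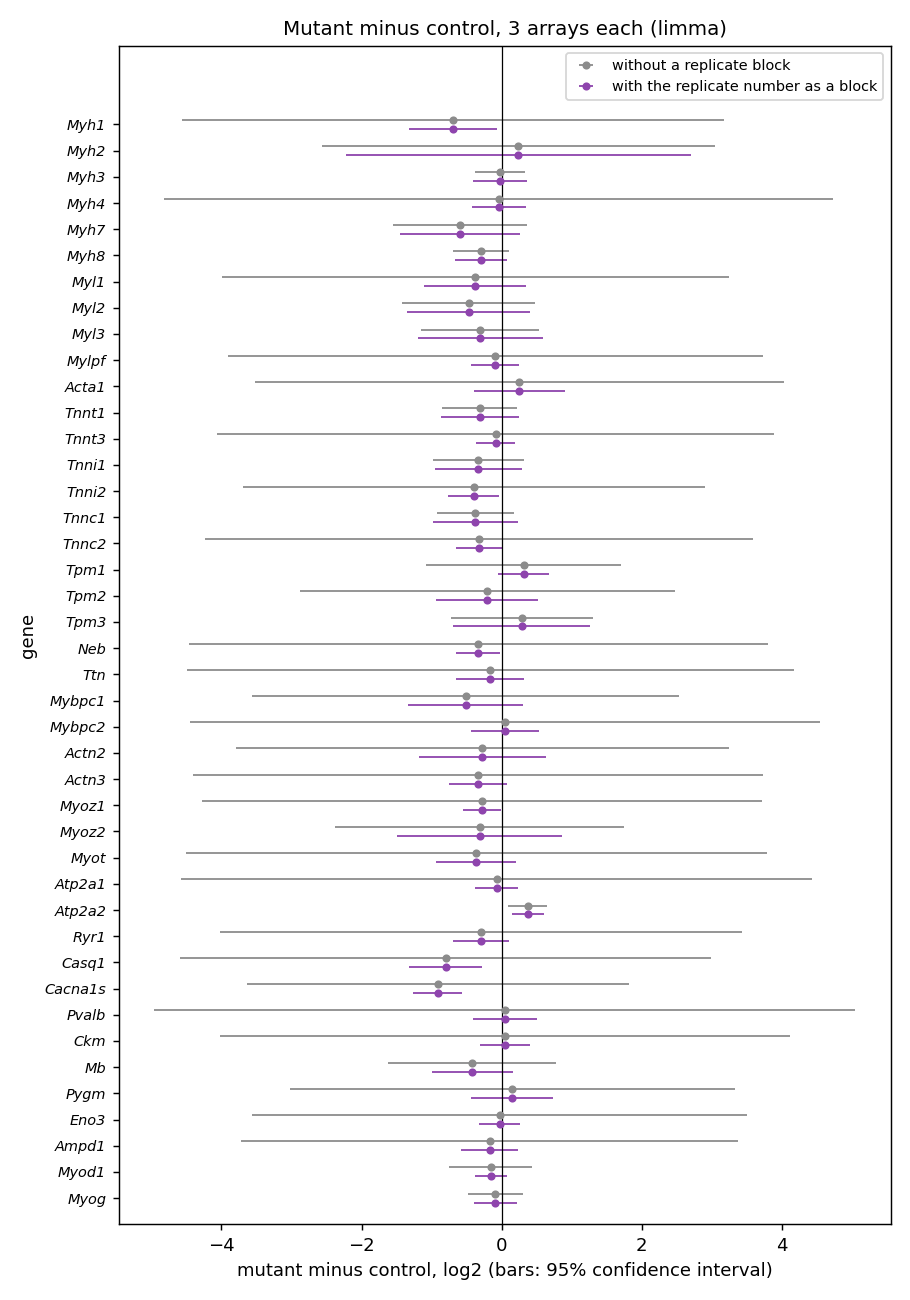
Mutant minus control difference in log2 value for the 42 genes, with 95% confidence intervals from limma without a block (grey) and with the replicate number as a block (purple), n = 3 arrays per genotype. The median interval is 6.82 wide without the block and 0.94 wide with it, and Cacna1s lies at −0.91.

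Atp2a2 came nearest to passing without the block. It averaged 11.84 ± 0.15 in the mutants, against 11.47 ± 0.15 in the controls (SD, n = 3 each), a difference of 0.37 (SE 0.12, limma adjusted p = 0.110, and 0.0628 with the block), and was higher in the mutant of every number, by 0.35, 0.38 and 0.39. It passed with the mean of the other striated muscle genes as a covariate (adjusted p = 0.0491, where 9.75% of all genes passed) and with array weights (adjusted p = 0.0135, where 18.1% passed). Myh8 had a difference of −0.29 (adjusted p = 0.384), and without mutant 2 it was lower in the mutants by 0.49 and passed (adjusted p = 0.0194, where 9.99% of all genes passed). The values of Myh8 lay under 8 on every array.

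Between same-numbered nerves, the slow genes had their widest gap in number 3. The median over the 42 genes, mutant minus control, was 0.10 for number 1, −0.14 for number 2 and −0.45 for number 3, with 23, 16 and 9 genes higher in the mutant. For the slow genes it was 0.08, 0.29 and −1.29. Mutant 3 was lower than control 3 in 9 of 10 slow genes, down to −1.88 for Myoz2, while mutant 2 was higher than control 2 in 9 of 10. The fast genes had medians of −0.09, −0.20 and −0.26.

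Other genes of striated muscle followed the same nerves. The mean of 40 measured genes of a list of 41 that excludes the 42 stood at 7.43, 10.13 and 7.83 in the mutants, against 7.67, 10.36 and 8.13 in the controls. Of these 40 genes 27 kept the order number 2 above 3 above 1 in both groups. Without a block 1 rose and 39 did not pass, with a median difference of −0.30, where 9.62% of all genes passed. The gene that rose was Casq2, the cardiac and slow calsequestrin, by 1.16 (limma adjusted p = 0.0102), while 2 genes of the list passed without mutant 2 and none without mutant 3. With the block 6 passed, Casq2 as higher and 5 as lower in the mutants: Smpx (−0.91), Cmya5 (−0.83), Ckmt2 (−0.79), Srl (−0.51) and Asb5 (−0.46), proteins of the sarcomere, the mitochondria and the sarcoplasmic reticulum of muscle among them. Of all genes 10.1% passed with the block in either direction and 4.16% as lower.

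Over all genes, 42 had a Pearson correlation of at least 0.95 with the mean of the 42 muscle genes over the 6 arrays and a range of at least 2, of which 24 belong to that mean and 18 do not. The correlation is a description over 6 arrays, and all genes share those arrays. The 8 closest outside it were Tmod4, which caps thin filaments (0.976), the muscle phosphoglycerate mutase Pgam2 (0.974), the muscle protein Apobec2 (0.973), triadin of the calcium release complex, Trdn (0.972), the sarcomeric mitochondrial creatine kinase Ckmt2 (0.970), the small heat shock protein Hspb6 (0.969), Klhl41 of the sarcomere (0.969) and hemojuvelin, Hjv (0.967). Tmod4 stood at 7.03, 11.72 and 8.46 in the mutants, against 7.11, 12.52 and 8.94 in the controls. Among the 42 muscle genes themselves 11 had a correlation under 0.7 with this mean, 8 slow-fibre genes, 2 developmental myosins and Myh2.

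Genes of the neuromuscular junction and of the response of muscle to denervation were measured as a separate list. Of 17 measured genes of a list of 18, 4 rose, 1 fell and 12 did not pass, with a median difference of −0.08. Of all genes 5.74% rose and 3.89% fell. Without mutant 1 or without mutant 3, 2 passed, and without control 2 or without control 3, 3 passed. The adhesion molecule Ncam1 rose by 1.44 (SE 0.19, limma adjusted p = 0.00543) and the agrin receptor Lrp4 by 1.20 (SE 0.090, adjusted p = 0.000681), both of which Schwann cells or other cells express too. Rapsn, which clusters acetylcholine receptors, fell by 1.32 (SE 0.25, adjusted p = 0.0197). Rapsn stood at 7.17, 8.04 and 7.33 in the mutants, against 8.51, 9.03 and 8.97 in the controls, which keeps the order number 2 above 3 above 1 of the muscle genes. Lrp4 did not keep it and stood at 10.49, 10.32 and 10.49 in the mutants, against 9.15, 9.24 and 9.31 in the controls.

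Contractile genes of other cell types were set beside the sarcomeric ones, and beside all genes, of which 5.74% rose and 3.89% fell. Of 9 measured genes of cytoplasmic actomyosin, out of 10 listed, 5 rose and none fell, with a median difference of 0.47. Actn1, the alpha-actinin of cells outside muscle, rose by 1.23 (SE 0.11, limma adjusted p = 0.00137), Myh10, a cytoplasmic myosin, by 0.82, and Myl12a, a light chain of cytoplasmic myosin, by 0.67. Actn1 stood at 11.08, 10.82 and 11.05 in the mutants, against 9.86, 9.60 and 9.80 in the controls, and was lowest in the nerve numbered 2 of either genotype. Of 11 genes of smooth muscle and mural cells 1 fell, Smtn, a cytoskeletal protein of smooth muscle, by 1.41 (adjusted p = 0.00183), and 10 did not pass, with a median of −0.06. Of 9 genes of satellite cells and myoblasts Cd34 (0.74) and Itga7 (0.54), which other cells express too, rose. Of 10 cardiac genes none passed, and the smallest adjusted p was that of Tnnt2 (0.52, adjusted p = 0.0669).

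Markers of other tissue in the nerve were measured on the same arrays, on which 5.74% of all genes rose and 3.89% fell. The mean of 8 measured adipocyte markers, of 9 listed, stood at 11.18, 11.52 and 10.80 in the mutants, against 12.34, 11.52 and 10.25 in the controls. Of the 8 none passed between genotypes. The mean of 8 measured genes of Schwann cells and myelin, of 11 listed, stood at 10.13, 9.63 and 10.10 in the mutants, against 11.67, 11.71 and 12.20 in the controls, and 6 of the 8 fell. Of 6 fibroblast genes 2 rose, of 4 perineurial genes 3 rose and 1 fell, and of 2 measured blood genes none passed. The mean of those 2, Hbb-bs and Alas2, of red blood cells, stood at 9.45, 11.23 and 10.37 in the mutants, against 10.16, 10.18 and 9.59 in the controls. In the mutants the blood genes thus had the order number 2 above 3 above 1 of the muscle genes, and their part in the muscle values was not tested. Whether the amount of muscle on an array plays a part in any difference of other genes was not tested here.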

How the data were processed

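The values used are log2 signals per probe set in 6 columns, 1 for each mouse, as deposited by the authors in a single table. No source states the log base, which was taken as 2 because values lay between 3.55 and 14.52. Per the labels' protocols, Trizol-extracted total RNA was amplified with the Ambion WT Expression kit and labelled with biotin. The submitters' processing notes name limma. For background correction, normalization and summary, the method is not given in the sources read. The table held 21225 probe sets and 0 columns outside the study. The platform annotation, updated to GRCm38.p6 symbols, gave a single symbol to 20239, several symbols to 0 and none to 986.

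Mutant minus control differences came from a two-sided fit without a block over all named genes, using lmFit and eBayes of limma 3.58.1 (R 4.3.3), with Benjamini-Hochberg adjustment. The moderated test had 6.89 degrees of freedom. The fit was tested on simulated data. Python 3.11.15 and matplotlib 3.10.9 made the figures. The number of arrays, 3 per group, limits the precision.

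The 42 genes, the lists and the rule for named genes were chosen with earlier results of these data known. The rule gave values by array for both genes of each fast and slow pair and, in each role, for the genes with the widest and narrowest range. In other lists it took up to 3 genes that passed with the largest change, or the gene with the smallest p, and outside the list the 8 genes most like the mean. Genes beyond it were chosen after their values were seen.

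Both groups share the replicate numbers 1 to 3. Taken over all genes, the deviations of a mutant and a control array of the same number from their own group mean had correlations of 0.36, 0.57 and 0.29, so the block was used as an alternative whose results stand beside the values it changes. Mutant 1 and control 3 correlated at 0.30 as well. Over the 17738 genes with a range under 1 the same-numbered correlations were −0.16, 0.05 and 0.31, and mutant 2 and control 1 correlated at 0.31. Over the 42 genes the 3 correlations were 0.94, 0.89 and −0.002. Other alternatives changed the filter on low values, the normalization, the offset, the prior, the weights, the probe sets tested, and the samples, or added the mean of 40 other muscle genes as a covariate.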

Additional observations from a re-analysis of the deposited data

How the results depend on the processing

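With the replicate block, 1 of the 42 genes passed in place of 0 and 6 other striated muscle genes in place of 1, while the calls of the junction list stayed at 5. The covariate and array weights each gave 1 of the 42, and leaving out 1 array gave 0 to 1. The other filters, scalings and priors kept 0. Over all genes 1948 passed, 3655 with array weights, and 896 to 2021 with 1 array left out, lowest without mutant 1 and, at 910, without mutant 3. Of other striated muscle genes 2 passed with array weights and 2 without number 2 of both groups, and 0 to 2 with 1 array left out. Of the junction genes 3 passed with median centring and 3 without number 2 of both groups, and 2 to 4 with 1 array left out. The median difference of the 42 genes was 0.12 with the covariate, −2.30 with array weights and −1.33 to 0.77 with 1 array left out. The mean gap between numbers 2 and 1, 3.39, was 3.37 with median centring and 3.30 with 16 added to linear values. Signs turned with array weights for Myh2 (−0.58), Acta1 (−1.97), Tpm1 (−0.50), Mybpc2 (−2.87), Pvalb (−3.31), Ckm (−2.52) and Pygm (−1.74). They turned without number 2 of both groups for Myh2 (−1.23), Mylpf (0.058), Tpm3 (−0.31), Eno3 (0.094) and Ampd1 (0.055). They turned with quantile normalization for Myh3 (0.060), Myh4 (0.016) and Ckm (−0.0011), and with median centring for Pvalb (−0.0029). They turned with the covariate for Myh4 (0.45), Mylpf (0.35), Tnnt3 (0.35), Tnnc2 (0.13), Tpm2 (0.10), Neb (0.13), Ttn (0.31), Actn2 (0.12), Actn3 (0.11), Myoz1 (0.19), Myot (0.11), Atp2a1 (0.40), Ryr1 (0.15), Eno3 (0.36) and Ampd1 (0.24). Leaving out 1 array at a time turned the sign of most of the 42 genes, with ranges of Myh1 −2.13 to 0.59, Myh2 −0.97 to 1.17, Myh3 −0.18 to 0.055, Myh4 −1.68 to 1.79, Myl1 −1.49 to 1.23, Myl2 −0.75 to 0.032, Mylpf −1.39 to 1.34, Acta1 −1.35 to 1.45, Tnnt3 −1.51 to 1.25, Tnni1 −0.51 to 0.002, Tnni2 −1.67 to 0.73 and Tnnc2 −1.66 to 1.14. Further ranges were Tpm1 −0.18 to 0.91, Tpm2 −1.23 to 0.80, Tpm3 −0.18 to 0.59, Neb −1.79 to 1.07, Ttn −1.78 to 1.29, Mybpc1 −1.75 to 0.45, Mybpc2 −1.47 to 1.75, Actn2 −1.65 to 0.82, Actn3 −1.67 to 1.11, Myoz1 −1.68 to 1.21, Myoz2 −1.30 to 0.24 and Myot −1.86 to 1.07. Further ranges were Atp2a1 −1.78 to 1.49, Ryr1 −1.59 to 1.16, Casq1 −2.20 to 0.60, Cacna1s −1.85 to 0.20, Pvalb −1.64 to 1.89, Ckm −1.50 to 1.40, Pygm −0.97 to 1.46, Eno3 −1.29 to 1.21, Ampd1 −1.37 to 1.25, Myod1 −0.38 to 0.069 and Myog −0.27 to 0.045. The array weights were 4.81, 0.46 and 1.52 for mutants 1, 2 and 3, and 0.47, 1.17 and 0.55 for controls 1, 2 and 3. Mutant 1, whose mean over the 42 genes was 7.68, thus counted most in the weighted mutant mean. The cause of the other shifts was not tested. Arrays without detection calls limit what can be said of genes near background.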

Other observations

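Some other genes of striated muscle, chosen after their values were seen, had wide gaps between mutant 2 and control 2. Xirp1, an actin-binding repeat protein, stood at 10.68 in mutant 2, against 9.04 in control 2. Ankrd2, a stretch-responsive protein of slow muscle, stood at 10.70 in mutant 2, against 9.27 in control 2. Tcap, which anchors titin, went the other way, at 9.43 in mutant 2, against 10.86 in control 2.

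Cox7a1 and Cox8b, subunits of cytochrome c oxidase in muscle and brown fat, were high in control 1, where the muscle genes were low. Cox8b stood at 9.50, 12.15 and 10.08 in mutants 1, 2 and 3, and at 12.47, 12.59 and 10.27 in controls 1, 2 and 3. The mean of the adipocyte markers was highest on control 1 as well, at 12.34, and its part in these values was not tested. Actc1, cardiac alpha-actin, stood at 7.71, 13.91 and 11.96 in the mutants and at 7.97, 13.90 and 10.02 in the controls. It shares this order with skeletal actin, Acta1, whose sequence is similar. In number 3, however, mutant minus control was 1.94 for Actc1 and −0.46 for Acta1. Cross-hybridisation between these actins was not tested.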
